A study of Homo sapiens with 6 samples.

Results

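The genes described here are the 10 genes of the ATF4 stress response and of serine synthesis, ATF4, DDIT3, ATF3, TRIB3, CHAC1, DDIT4, ASNS, PHGDH, PSAT1 and PSPH, out of 19053 genes that could be named in the expression table. They were chosen by name: a row of the table belonged to a member if its RefSeq protein accession, read without its version number, is listed for that gene, which gave 42 of the 109018 rows and at least 1 row for all 10 genes. RNA-seq had been done on K562 cells, a Bcr-Abl-positive human chronic myeloid leukemia line. Knockdown cells with a hairpin directed at lncRNA-IUR-5 (named sh-IUR-5 here and sh-lncRNA-IIRX in the sample labels, 3 libraries) were compared with controls whose hairpin was directed at luciferase (sh-luc, 3 libraries). Both groups carried the pSIH shRNA vector and differed in its target, no drug is named for either, and according to the methods the RNA came from 3 independent groups of cells. Because one shRNA represents the lncRNA-IUR-5 knockdown and the rows are protein accessions, an effect of this hairpin besides the loss of lncRNA-IUR-5 cannot be told apart, and the level of lncRNA-IUR-5 itself was not analysed here.

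ATF4 is the transcription factor of the integrated stress response. Kinases that sense amino acid shortage, unfolded proteins in the endoplasmic reticulum, heme shortage or viral RNA phosphorylate the initiation factor eIF2 on its alpha subunit, which lowers general translation and raises translation of the ATF4 mRNA, so the mRNA level of ATF4 is not a measure of its protein. ATF4 then pairs with C/EBP-family proteins and switches on genes for amino acid synthesis and uptake, among them the serine synthesis enzymes PHGDH, PSAT1 and PSPH, as well as DDIT3 (CHOP), a factor of the late and damaging phase of the response. Only mRNA was measured here.

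Between 21023739 and 31481109 reads were counted per library. The reads of all rows of a gene were summed, scaled with TMM factors (a correction for library composition, 0.917 to 0.935 in sh-luc and 1.051 to 1.123 in sh-IUR-5), and given as CPM, the reads of a gene relative to the scaled library total. The rule by which a read fitting several isoforms was counted is not given in the sources used here. The quasi-likelihood test of edgeR was applied to the 11556 genes with a mean of at least 10 summed reads to compare the groups, with Benjamini-Hochberg adjustment over all of them and a threshold of 0.05. All 10 members were among these genes. Scaling to total reads in place of TMM moved the median log2 fold change of all genes from 0.02 to 0.24 and the share of calls that were higher from 53.1% to 81.2%. Member values that depend on this choice are given below with both scalings. With total reads 4650 of the 11556 genes were called higher and 1075 lower. With each library's trends on GC content and coding length removed, 2029 of 11424 genes were higher and 2322 lower. Counts of genes under these 2 settings are to be read beside these numbers. For single genes an exact permutation test was also run, two-sided, which for 3 libraries against 3 cannot give a p below 0.1.

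The erythroid identity of the cells was checked on 14 K562 markers, all of which were tested. The summed level of these markers ranged from 12000 to 13400 TMM-scaled CPM in sh-luc and from 8830 to 9270 in sh-IUR-5, so the groups did not overlap. Of the 14 genes, 5 (35.7%) were higher and 6 (42.9%) lower in sh-IUR-5, against 23.3% and 20.5% of all genes tested. The embryonic and fetal hemoglobin genes HBZ (log2 fold change -0.88), HBE1 (-0.70), HBG1 (-0.56) and HBG2 (-0.54) were among the lower ones. The transferrin receptor gene TFRC (1.11), the erythroid factor TAL1 (0.71) and the fusion partners ABL1 (0.61) and BCR (0.47) rose. These values are with TMM. With total reads 5 markers were higher and 4 lower, and with the trends removed 5 and 5. The median log2 fold change of the markers was -0.15 with TMM, 0.071 with total reads and 0.037 with the trends removed. Markers called lower with TMM had a median coding length of 444 bases, against 888 for all genes called lower. Of 12 markers of other cell types, the B cell gene MS4A1 had no read, 5 in all had at most 3 reads in every library, and 5 were tested. EPCAM and LYZ had 1780 to 2710 and 811 to 1268 reads per library. The summed level of the 12 genes was 152 to 177 TMM-scaled CPM in sh-luc and 138 to 169 in sh-IUR-5. Whether the shift in erythroid genes takes part in the results for the members was not tested, and in RNA from whole cultures fewer cells of a kind and less RNA per cell cannot be told apart.

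ATF4 and 3 genes it is known to induce were lower after lncRNA-IUR-5 knockdown. ASNS fell by 14.5%, ATF4 by 26.6%, PHGDH by 27.1% and DDIT3 by 29.8%, with edgeR adjusted p from 0.00108 to 0.0362, and in these 4 genes every sh-IUR-5 library lay below every sh-luc library with TMM scaling. Scaled to total reads, ATF4 alone of the 4 kept its groups apart, while those of DDIT3, ASNS and PHGDH overlapped and those of PSAT1 and TRIB3 came apart with sh-IUR-5 above. The members called were then 2 lower, ATF4 and PHGDH, and 2 higher, PSAT1 and TRIB3. Of all 11556 genes, 1075 were called lower and 4650 higher with total reads. The share of all genes whose groups come apart at that scaling is not given here. The count of members higher was 0 by edgeR, by DESeq2 and by limma, and 2 (PSAT1 and TRIB3) at an unadjusted edgeR p under 0.05. With the label series of the libraries as a term, which PSAT1 followed in both groups, these same 2 genes were called higher beside the 4 lower ones (edgeR adjusted p = 0.000183 for PSAT1 and 0.0279 for TRIB3). The fit with that term called 3393 of all 11556 genes higher and 3074 lower. PSAT1, PSPH, TRIB3, CHAC1, DDIT4 and ATF3 did not pass the adjusted threshold in the fit without that term, and their groups overlapped with TMM scaling. In the fit with TMM and without that term, 20.5% of all genes tested were called lower and 23.3% higher. With TMM scaling all sh-IUR-5 libraries lay below all sh-luc libraries in 25.1% of genes and above them in 28.6%. The 4 of 10 members called lower are 40.0% of the members, and the median log2 fold change was -0.15 over the members and 0.02 over all genes. With total reads these medians were 0.068 and 0.24. With trends on GC content and coding length removed they were 0.006 and -0.012, so the members as a group were then not lower.

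**Figure D1:**
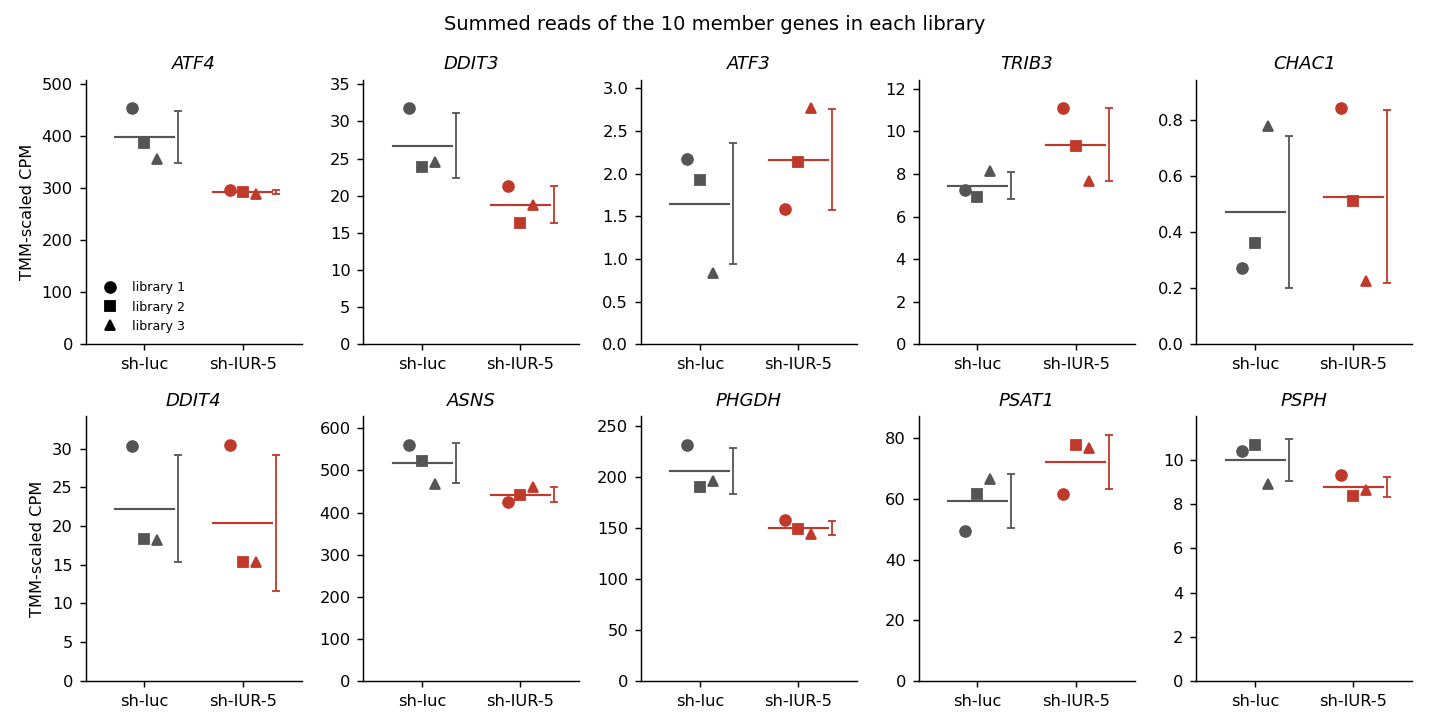
TMM-scaled CPM (y axis, from 0) of each of the 10 genes in the 3 sh-luc (grey) and 3 sh-IUR-5 (red) libraries, with circles, squares and triangles for libraries 1, 2 and 3, horizontal lines for group means and bars for the SD. With this scaling the groups are apart in ATF4, DDIT3, ASNS and PHGDH and overlap in the other 6 genes (with total reads they are apart in ATF4, PSAT1 and TRIB3), and in DDIT4 library 1 stands at 30.3 in sh-luc and 30.5 in sh-IUR-5, above libraries 2 and 3.

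ATF4 (chromosome 22, 39519695 to 39522683 on hg38, plus strand) was the most highly expressed member per coding length in sh-luc cells. Its level was 453, 386 and 355 TMM-scaled CPM in libraries 1, 2 and 3 of sh-luc and 295, 292 and 289 in those of sh-IUR-5. All sh-IUR-5 libraries were lower than the lowest sh-luc library, with a mean of 292 ± 3.27 (SD, n = 3) against 398 ± 49.7 in sh-luc. ATF4 mRNA fell by 26.6%, a log2 fold change of -0.45 ± 0.088 (SE, edgeR adjusted p = 0.00138). Scaled to total reads, the log2 fold change was -0.23 (edgeR adjusted p = 0.0369), still a fall.

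DDIT3 (chromosome 12, 57516588 to 57521737, minus strand) encodes CHOP, which ATF4 induces and which turns on cell death genes when stress lasts. It stood at 31.8, 23.8 and 24.6 TMM-scaled CPM in sh-luc and at 21.3, 16.3 and 18.7 in sh-IUR-5. With TMM the highest sh-IUR-5 library was below the lowest sh-luc library, and in both groups library 1 was the highest. DDIT3 fell by 29.8% (log2 fold change -0.51 ± 0.13 (SE), edgeR adjusted p = 0.00657). The fall was not past the threshold with scaling to total reads (log2 fold change -0.29, edgeR adjusted p = 0.108) or with 1 row taken for the gene (-0.40, adjusted p = 0.0839).

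ATF3, a stress-induced bZIP factor that can repress or activate its targets, had few reads. The libraries held 40, 32 and 14 summed reads in sh-luc and 47, 46 and 61 in sh-IUR-5. In CPM the groups overlapped, with a log2 fold change of 0.36 and a 95% interval that ran from below to above 0 (SE 0.32, edgeR adjusted p = 0.382).

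TRIB3, a pseudokinase that ATF4 and CHOP induce and that feeds back on ATF4, had a value on the other side of 0 from ATF4. Its level was 7.27, 6.93 and 8.16 TMM-scaled CPM in sh-luc and 11.1, 9.33 and 7.67 in sh-IUR-5. Libraries 1 and 2 of sh-IUR-5 were above all sh-luc libraries, and library 3 was inside their range. The log2 fold change was 0.34 ± 0.15 (SE, edgeR adjusted p = 0.0833). TRIB3 was called higher without sh-IUR-5 library 3 (log2 fold change 0.44, edgeR adjusted p = 0.0297), with scaling to total reads (0.55, adjusted p = 0.0145), with the GC content and length trends removed (0.49, adjusted p = 0.00891) and with the series term (0.33, adjusted p = 0.0279). With 1 row taken for the gene it was called higher too (0.73, edgeR adjusted p = 0.0165).

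CHAC1, which breaks down glutathione and is a late ATF4 and CHOP target, was near the limit of counting. It had 5, 6 and 13 summed reads in sh-luc and 25, 11 and 5 in sh-IUR-5. High and low libraries occurred in both groups, and a change was not detectable at this depth (log2 fold change 0.24 ± 0.53 (SE), edgeR adjusted p = 0.743).

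DDIT4 (REDD1), a stress-induced brake on the growth kinase complex mTORC1, differed more between library numbers than between the shRNAs. Its level was 30.3, 18.3 and 18.2 TMM-scaled CPM in sh-luc and 30.5, 15.3 and 15.3 in sh-IUR-5. Library 1 was the high one in both groups, and libraries 2 and 3 were close to each other. The log2 fold change between the groups was -0.12 ± 0.26 (SE, edgeR adjusted p = 0.736) with TMM and 0.11 with total reads. Without sh-IUR-5 library 1 DDIT4 was called lower (log2 fold change -0.55, edgeR adjusted p = 0.0475), and without sh-luc library 1 the value was 0.17 (adjusted p = 0.623).

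ASNS (chromosome 7, 97851677 to 97872542, minus strand) encodes asparagine synthetase, a much-used readout of ATF4 activity. It stood at 561, 523 and 468 TMM-scaled CPM in sh-luc and at 425, 441 and 461 in sh-IUR-5. With TMM the sh-IUR-5 libraries were all lower, but the highest of them was close to the lowest sh-luc library. The log2 fold change was -0.23 ± 0.08 (SE, edgeR adjusted p = 0.0362), the smallest of the 4 falls. It was not past the threshold without sh-luc library 1 (-0.16, edgeR adjusted p = 0.155), without sh-luc library 2 (adjusted p = 0.0857) or without sh-IUR-5 library 2 (adjusted p = 0.0888). Nor did ASNS pass with total reads (-0.013, edgeR adjusted p = 0.893) or with 1 row taken for the gene (-0.21, adjusted p = 0.0506). GAPDH, used as a reference gene, had a value of like size (log2 fold change -0.19, edgeR adjusted p = 0.0400, and 0.025 with total reads), and ACTB had 0.013 (adjusted p = 0.896).

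ATF4 and its C/EBP partners bind a composite element whose letters were searched as TGATGNAA on both strands, from 250 bases before to 50 after each RefSeq start site (GRCh38.p14). A promoter window was at hand for 9 of the 10 members, all but PSPH. ASNS, ATF3 and CHAC1 held a match, against 3.62% of all 35116 windows and 4.46% of genes. Their stretches are printed so that the element can be seen in its setting, 5′ to 3′ along the gene's strand, with the matched letters in capitals. In CHAC1 the capitals read as the reverse complement, since the match is on the opposite strand.
ASNS, chr7:97872422-97872522, minus strand: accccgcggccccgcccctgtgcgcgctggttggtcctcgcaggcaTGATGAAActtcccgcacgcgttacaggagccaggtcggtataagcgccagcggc
ATF3, chr1:212565170-212565270, plus strand: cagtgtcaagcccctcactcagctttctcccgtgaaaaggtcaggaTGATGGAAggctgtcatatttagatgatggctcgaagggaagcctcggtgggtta
CHAC1, chr15:40953221-40953321, plus strand: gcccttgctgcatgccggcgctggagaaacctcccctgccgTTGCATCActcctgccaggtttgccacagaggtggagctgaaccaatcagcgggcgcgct

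Of the 4 genes that were lower, only ASNS held the letters within its window, and PHGDH, DDIT3 and ATF4 did not. The CRE palindrome TGACGTCA, searched in the same way, was in no member's window and in 1.85% of all windows. These matches describe letters in a fixed window and say nothing of binding.

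Of the 3 serine synthesis genes, PHGDH was lower and the other two did not pass the threshold. PHGDH (chromosome 1, 119648411 to 119744218, plus strand), which oxidizes 3-phosphoglycerate in the first step, stood at 232, 191 and 196 TMM-scaled CPM in sh-luc and at 158, 149 and 144 in sh-IUR-5. With TMM all sh-IUR-5 libraries were below the lowest sh-luc library. Scaled to total reads the groups overlapped, since sh-IUR-5 library 1 (87.4 RPKM) lay above sh-luc library 2 (86.8 RPKM). The log2 fold change was -0.46 ± 0.086 (SE, edgeR adjusted p = 0.00108), and with total reads it was -0.24 (edgeR adjusted p = 0.0418).

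PSAT1 (chromosome 9, 78297125 to 78330093, plus strand), the aminotransferase of the next step, lay on the other side of 0. Its level was 49.3, 61.7 and 66.6 TMM-scaled CPM in sh-luc and 61.7, 77.8 and 76.8 in sh-IUR-5. Libraries 2 and 3 of sh-IUR-5 were the highest of all, and library 1 of that group was level with sh-luc library 2. The log2 fold change was 0.28 (95% interval 0.031 to 0.54, edgeR adjusted p = 0.0655), not past the threshold. It passed without sh-IUR-5 library 1 (0.38, edgeR adjusted p = 0.00476), without sh-luc library 3 (0.37, adjusted p = 0.0461), with the series term (0.29, adjusted p = 0.000183) and with total reads (0.49, adjusted p = 0.00262), and with total reads the groups did not overlap. With 1 row taken for the gene PSAT1 passed too (0.34, edgeR adjusted p = 0.0195).

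PSPH, the phosphatase of the last step, had 192, 178 and 149 summed reads in sh-luc and 276, 181 and 191 in sh-IUR-5. In CPM the groups overlapped, and the log2 fold change was -0.19 ± 0.12 (SE, edgeR adjusted p = 0.218). With total reads the value turned to 0.029.

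**Figure D2:**
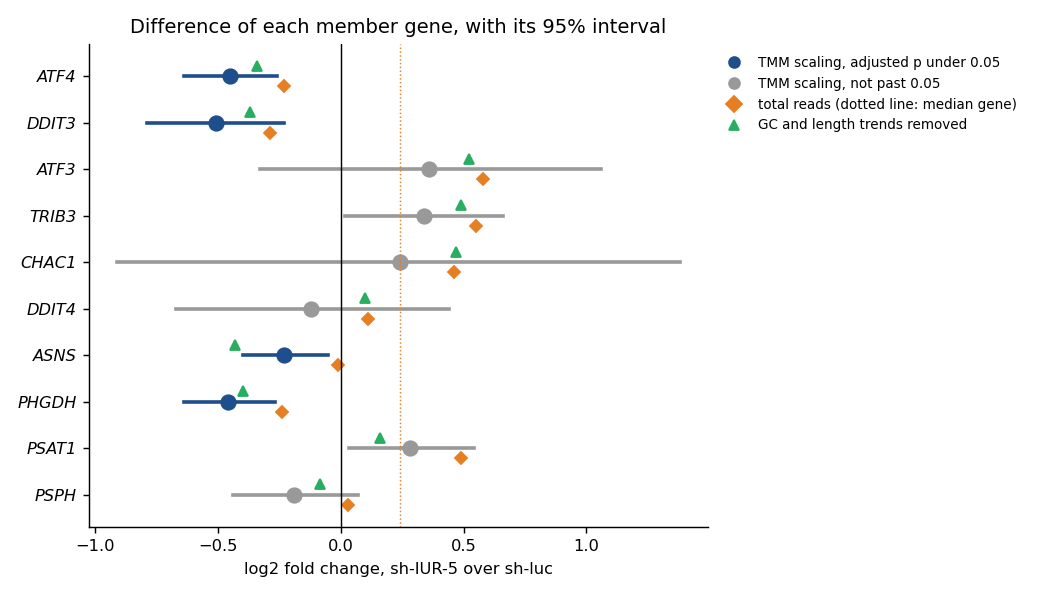
Log2 fold change of each gene, sh-IUR-5 over sh-luc (x axis), with TMM scaling and its 95% interval (circles and bars, blue where the adjusted p is under 0.05), with total reads (diamonds) and with GC content and length trends removed (triangles). The dotted line is the median of all genes with total reads, 0.24, and the 4 blue genes have values from -0.51 to -0.23 while total reads shift every gene to the right.

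Fold changes across all genes varied with transcript properties. Over the 11556 genes, Spearman's rho between log2 fold change and coding length was 0.32, and over 11424 genes it was -0.33 with transcript GC content. These are correlations across genes, which are not independent replicates. The median log2 fold change was -0.20 in the 2891 genes with the shortest coding length, up to 837 bases, and 0.20 in the 2887 with the longest. The main ATF4 rows are 1056 bases long, those of DDIT3 510 or 579, and those of ASNS 1437 to 1686. With both trends removed in each library, the 4 genes were still called lower, with log2 fold changes of -0.34 (ATF4), -0.37 (DDIT3), -0.43 (ASNS) and -0.40 (PHGDH), and PSAT1 had 0.16.

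Levels of different genes were compared per coding length, as RPKM summed over the rows of a gene and scaled to total reads. In sh-luc cells the order of mean RPKM was ATF4 (296), ASNS (255), PHGDH (95.3), PSAT1 (44.3), DDIT3 (37.6), DDIT4 (25.1), PSPH (13.2), TRIB3 (5.38), ATF3 (2.65) and CHAC1 (0.503), each a mean of 3 libraries. ATF4 and ASNS overlapped in both groups, as did DDIT3 and DDIT4. PSAT1 and DDIT3 overlapped in sh-luc, where PSAT1 had 36.9, 45.6 and 50.2 RPKM and the highest DDIT3 library had 45.0. In sh-IUR-5 they did not, with 35.8 RPKM in the highest DDIT3 library and all PSAT1 libraries above it. The remaining neighbours did not overlap in either group. In sh-IUR-5 the means of ATF4 and ASNS were both 250 RPKM.

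A ratio of 2 genes within a library does not depend on library scaling, and 8 pairs of members were compared in this way, chosen after the values of the members had been seen. PHGDH reads per ATF4 read were 0.513, 0.494 and 0.551 in sh-luc and 0.536, 0.511 and 0.499 in sh-IUR-5. The groups overlapped, and the log2 difference was -0.011 ± 0.055 (SE, exact permutation p = 0.9, adjusted over the 8 pairs 0.9). DDIT3 reads per ATF4 read also overlapped, with means of 0.067 and 0.0641.

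The ratio of PSAT1 to PHGDH was higher in the knockdown libraries. There were 0.212, 0.324 and 0.340 PSAT1 reads per PHGDH read in sh-luc and 0.390, 0.522 and 0.533 in sh-IUR-5. All sh-IUR-5 libraries were above all sh-luc libraries, 1.67-fold in the mean. In the same way TRIB3 per ATF4 was 1.69-fold higher, TRIB3 per DDIT3 1.77-fold, PSAT1 per ATF4 1.66-fold, PSPH per PHGDH 1.2-fold and ASNS per ATF4 1.16-fold, each without overlap of the groups. For each of these 6 pairs the exact permutation p was 0.1, the smallest 3 against 3 libraries can give, and 0.133 after adjustment over the 8 pairs, so none passed the threshold.

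**Figure D3:**
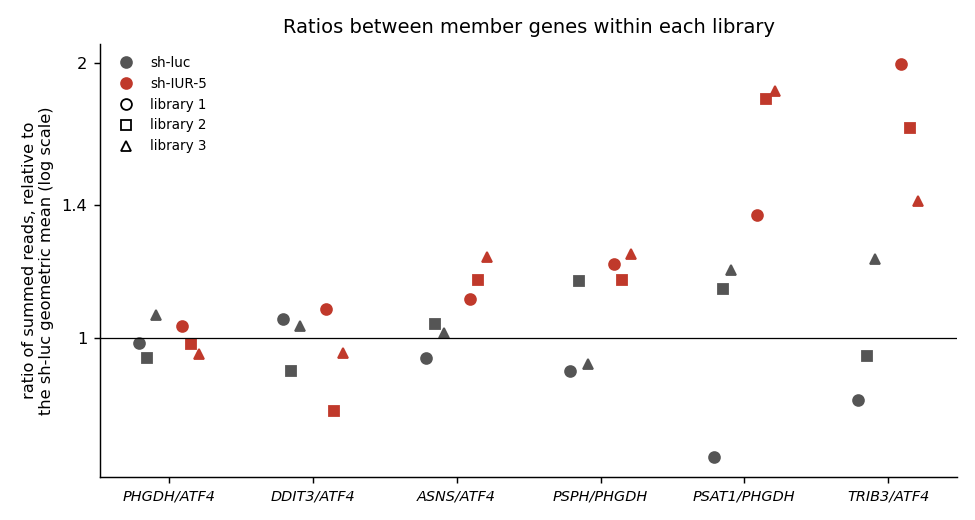
Ratio of summed reads of 2 member genes in each library, divided by the geometric mean of the sh-luc libraries (y axis, log scale), for 6 of the 8 pairs, in sh-luc (grey) and sh-IUR-5 (red). PHGDH and DDIT3 per ATF4 overlap between the groups, while PSAT1 per PHGDH and TRIB3 per ATF4 are higher in every sh-IUR-5 library, 1.67-fold and 1.69-fold in the mean.

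Each protein accession of a member was also read by itself, in a fit of the 38204 rows with a mean RPKM of at least 1. Of the 42 member rows 31 reached this level, and 11 of these were lower and 2 higher in sh-IUR-5, where 18.2% of all rows tested were lower and 19.3% higher. Rows of a gene share sequence and are not independent. Both ATF4 rows (log2 fold change -0.45 and -0.43) and all 4 PHGDH rows (-0.56 to -0.39) were lower. The 6 ASNS rows ran from -0.34 to -0.14 with 3 past the threshold, and the 6 DDIT3 rows from -0.65 to -0.39 with 2 past it.

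The 2 rows called higher were NP_478059.1 of PSAT1 and NP_001288130.1 of TRIB3, each the longest row of its gene. The PSAT1 row of 1113 bases had a log2 fold change of 0.34 ± 0.10 (SE, edgeR adjusted p = 0.0113), and the row of 975 bases, NP_066977.1, had 0.21 (adjusted p = 0.183). For TRIB3 the row of 1158 bases had 0.74 ± 0.22 (SE, edgeR adjusted p = 0.0118), and NP_066981.2, with 1077 bases, had -0.018 (adjusted p = 0.959). Other TRIB3 rows of the same 1077 bases had values up to 0.43. The rows of 1077 bases held from 13 to 26 reads in sh-luc library 1. The difference between rows was not tested, and how far it depends on the assignment of shared reads is not known. All 8 ATF3 rows and both CHAC1 rows had a mean RPKM under 1. Pseudogenes carry the names of ATF4, ASNS and PSAT1 (4 each) and of PSPH (1), and how reads shared with them were counted is not given in the sources used here.

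In the column names of the deposited counts, libraries 2 and 3 of each group share a first number, and library 1 has another. The meaning of this number is not explained, and it is called series here. Some members followed this label in both groups. With a term for it, 8.39% of all genes were higher and 7.15% lower in series 2 than in series 1. DDIT4 was lower in series 2 (log2 fold change -0.87 ± 0.084 (SE), edgeR adjusted p = 9.36e-08), and so were DDIT3 (-0.34, adjusted p = 0.00624) and PHGDH (-0.19, adjusted p = 0.0213), while PSAT1 was higher (0.35, adjusted p = 0.000387). The other 6 members did not pass the threshold for series. With the series term in the fit, the same 4 members were called lower in sh-IUR-5, and PSAT1 (0.29, edgeR adjusted p = 0.000183) and TRIB3 (0.33, adjusted p = 0.0279) were called higher, as given above. Series 1 holds 1 library of each group, so no test could be made within it.

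Upstream of ATF4, 16 genes for the eIF2 kinases and their helpers, the eIF2 phosphatase subunits and eIF2 and eIF2B were all tested. Of these 5 were higher (31.2%) and 3 lower (18.8%), against 23.3% and 20.5% of all genes tested. The median log2 fold change was 0.10. EIF2AK1, the heme-sensing kinase HRI, rose from 244, 239 and 234 to 324, 299 and 308 TMM-scaled CPM (log2 fold change 0.38, edgeR adjusted p = 0.000819). All sh-IUR-5 libraries were above all sh-luc libraries. EIF2AK3, the endoplasmic reticulum kinase PERK, rose by 0.64 (edgeR adjusted p = 0.00336), GCN1, which helps the amino acid sensor GCN2, by 0.29, and PPP1R15B, a phosphatase subunit that removes the phosphate from eIF2, by 0.69. EIF2AK4, GCN2 itself, had a log2 fold change of 0.11 (edgeR adjusted p = 0.453). The beta subunit of eIF2, EIF2S2, fell by 0.49 on the log2 scale, and the eIF2B subunits EIF2B3 and EIF2B4 fell by 0.37 and 0.30. With GC content and length trends removed, 2 genes of this list were higher and 4 lower, and EIF2AK3 (0.34, edgeR adjusted p = 0.0582) and GCN1 (0.14, adjusted p = 0.153) were no longer past the threshold. With total reads 9 were higher and 1 lower, and EIF2B3 and EIF2B4 were not past it. Among 12 partners and feedback factors of ATF4, 10 were tested. Of these 2 were higher (20.0%) and 0 lower, against 23.3% and 20.5% of all genes tested. By DESeq2, by limma and at an unadjusted edgeR p under 0.05, 0 were lower too. With the series term ATF5 was called lower (-0.29, edgeR adjusted p = 0.00784) and NFE2L2 higher (0.18, adjusted p = 0.00916). ATF5 and CEBPD were each also called lower in 1 fit with 1 library left out. The bZIP factor ATF2 rose by 0.63 and BTRC, part of the ubiquitin ligase that degrades ATF4, by 0.60.

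Other known ATF4 target genes moved in both directions. Of 40 listed genes 37 were tested, 5 were higher, 6 lower and 26 not past the threshold, and their median log2 fold change was 0.057. The shares, 13.5% higher and 16.2% lower, were both below those of all genes tested (23.3% and 20.5%). The balance depended on the scaling, since with total reads 18 were higher and 2 lower, with a median of 0.27. SLC38A2, the amino acid transporter SNAT2, had the largest rise, from 18.6, 22.9 and 24.3 to 53.0, 53.5 and 58.1 TMM-scaled CPM (log2 fold change 1.32 ± 0.10 (SE), edgeR adjusted p = 1.07e-05). The lowest sh-IUR-5 library was far above the highest sh-luc library. BCAT1, a branched-chain aminotransferase, rose by 0.65, the tRNA exporter XPOT by 0.47 and the isoleucyl-tRNA synthetase IARS1 by 0.30, although the groups of IARS1 overlapped. The mitochondrial protease LONP1 fell by 0.43 on the log2 scale, the seryl-tRNA synthetase SARS1 by 0.35, MTHFD2 by 0.49 and KLHL24 by 0.87. SLC7A11, the cystine transporter, had 0.36 (edgeR adjusted p = 0.141). Without the GC content and length trends, XPOT (0.15) and IARS1 (0.0077) were no longer past the threshold, and with total reads SARS1 (-0.14) and MTHFD2 (-0.28) were not.

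Genes that use serine, in glycine synthesis, the folate cycle and methionine synthesis, were 27, of which 25 were tested. Of these 7 were higher (28.0%) and 3 lower (12.0%), against 23.3% and 20.5% of all genes tested, with a median of 0.028. With total reads 14 were higher and 0 lower, with a median of 0.24. SHMT2, the mitochondrial enzyme that makes glycine from serine, stood at 229, 220 and 223 TMM-scaled CPM in sh-luc and at 213, 212 and 212 in sh-IUR-5. Although the groups did not overlap, the difference was small (log2 fold change -0.078, edgeR adjusted p = 0.363), and it turned to 0.14 with total reads. MTHFD2, the next mitochondrial folate enzyme, went from 62.2, 61.6 and 54.9 to 48.3, 37.9 and 40.5, without overlap, a log2 fold change of -0.49 (edgeR adjusted p = 0.00137). The folate enzymes ALDH1L1 and MTHFS fell by 0.40 and 0.30 on the log2 scale. SHMT2 and MTHFD2 are on the list of ATF4 targets too. On the methionine side MAT2A (0.63), MTR (0.61) and MTRR (0.59) rose, as did the mitochondrial serine carrier SFXN1 (0.50).

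**Figure D4:**
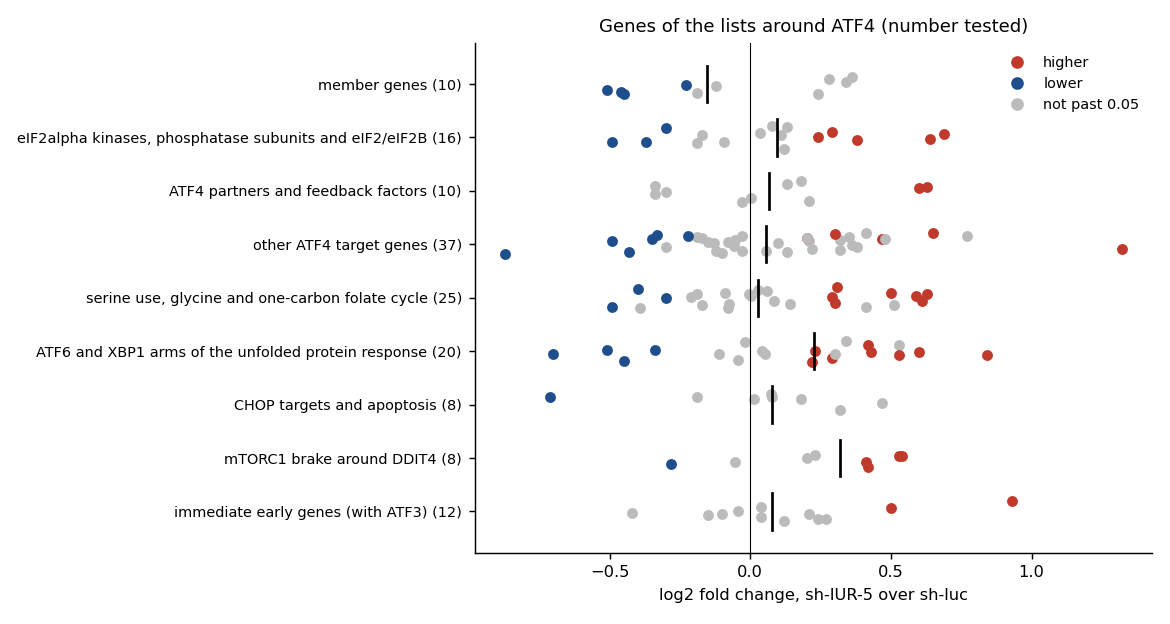
Log2 fold change of each tested gene, sh-IUR-5 over sh-luc (x axis), in the 10 member genes and the 8 lists around them (rows, number tested in brackets), red where higher and blue where lower past the threshold, with a black line at the median. With TMM scaling every list has points on both sides of 0, and the medians run from -0.15 in the member genes to 0.32 in the mTORC1 list (0.068 and 0.53 with total reads).

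The other arms of the unfolded protein response, run by ATF6 and XBP1, were represented by 20 genes, all tested. Of these 8 were higher (40.0%) and 4 lower (20.0%), against 23.3% and 20.5% of all genes tested, with a median of 0.23. HSPA5 (BiP), the main chaperone of the endoplasmic reticulum, overlapped between the groups (log2 fold change 0.042, edgeR adjusted p = 0.760). SEL1L (0.84) and SYVN1 (0.43), which take misfolded proteins out for degradation, DNAJB9 (0.60) and the lectin chaperone CANX (0.53) rose. The folding helpers SDF2L1, DNAJB11, CRELD2 and MANF fell by 0.70, 0.34, 0.45 and 0.51 on the log2 scale. The higher genes of this list had a median coding length of 1820 bases and the lower ones 864, against 1840 and 888 for higher and lower genes in the whole table, and with the trends removed 5 were higher and 2 lower, without SDF2L1 and CRELD2. With total reads 14 were higher and 1, SDF2L1, was lower.

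Downstream of DDIT3, 8 of 10 CHOP target and apoptosis genes were tested. Only BCL2L11 (BIM), a cell death activator, was past the threshold, 12.5% of the list against 20.5% of all genes tested lower. It fell by 0.71 on the log2 scale (edgeR adjusted p = 3.74e-05). By edgeR, DESeq2, limma or an unadjusted p under 0.05, 0 of the 8 were higher. With total reads, and also with the GC content and length trends removed, 2 of these genes were higher. Around DDIT4, 8 of 10 genes of mTORC1 and its regulators were tested, with 4 higher and 1 lower and a median of 0.32. This list mixes parts and an activator of mTORC1 with genes that restrain it, so its counts do not describe the brake alone. The kinase MTOR rose by 0.54, TXNIP by 0.53, the 14-3-3 gene YWHAQ by 0.42 and RPTOR by 0.41, and RHEB, the activator of mTORC1, fell by 0.28 on the log2 scale. RHEB was not past the threshold with the trends removed (-0.16, edgeR adjusted p = 0.0859) or with total reads (-0.069, adjusted p = 0.450). The list then had 5 genes higher with the trends removed, 6 with total reads, and 0 lower in both. Of all genes, 2029 of 11424 were higher and 2322 lower with the trends removed. With total reads 4650 of 11556 were higher and 1075 lower. Of the 15 immediate early genes listed with ATF3, 12 were tested. By edgeR 2 were higher (16.7%) and 0 lower, against 23.3% and 20.5% of all genes tested. By DESeq2, by limma and at an unadjusted p under 0.05, 0 were lower too. Here BTG2 rose by 0.93 and DUSP1 by 0.50.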

How the data were processed

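RNA-seq of K562 cells gave 3 sh-luc and 3 sh-IUR-5 libraries, grouped by the sample labels. The submitters' processing notes name CASAVA 1.8, Trimmomatic 0.32, Bowtie2 2.1.0, SAMtools 0.1.19 and hg38. The authors deposited read counts per RefSeq protein accession, without normalization. The deposited RPKM equals reads divided by coding length and by the library's total reads, with the usual constant, in every row. The authors' table of the comparison (pooled counts, pooled RPKM, fold change, p-values and q-values) was not used.

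Accessions were matched to symbols with the RefSeq gene list of GRCh38.p14 for 64.7% of rows, which held 83.9% to 84.8% of a library's reads. Lengths are coding lengths, since 99.8% are multiples of 3. Summed reads were tested with edgeR 4.0.16 (R 4.3.3) using TMM and the quasi-likelihood test, two-sided, on genes with a mean of at least 10 reads, and rows singly from a mean RPKM of 1. The biological coefficient of variation was 8.7%. Depth limits low genes: in the sh-luc libraries 3 reads on 1 kb correspond to 0.129 to 0.143 RPKM. The methods describe 3 independent groups of cells. The column names give libraries 2 and 3 of a group the same first number, read here as a series. Its meaning is not explained, and whether part of their spread is technical is not known.

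Alternatives were total-read scaling, DESeq2 1.42.0 and its size factors, limma 3.58.1 (prior count 1), no minimum, minimums of 100 reads or an RPKM of 5, each library left out, the replicate number as a block, the label series as a term, 1 row per gene, and removal of each library's trends on GC content (longest coding transcript, 98.9% of tested genes) and length with mgcv 1.9.3. The series difference, the ratios of members and the counts at an unadjusted p were chosen after the values were seen. On simulated counts for 11556 genes with 200 changed 2-fold, edgeR recovered 178 with 15 false calls, DESeq2 181 with 19 and limma 175 with 14, and edgeR recovered 179 with 18 on 38204 rows. The simulation held no trend on GC content or length and no series difference. The changes of the members were smaller than 2-fold, and recovery of changes of their size was not measured.

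The members and lists were chosen with earlier results of these data known. Named genes are the members, up to 4 called genes that rose most and 4 that fell most in each list, EIF2AK1, EIF2AK3, EIF2AK4, HSPA5, SHMT2, MTHFD2 and SLC7A11, and GAPDH and ACTB as reference genes. EPCAM, LYZ and MS4A1 were named after their values were seen. The result for 1 marker gene is not reported here. Promoter windows are from RefSeq, gene coordinates from GENCODE on hg38.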

Additional observations from a re-analysis of the deposited data

How the results depend on the processing

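ATF4, DDIT3, ASNS and PHGDH were lower by edgeR with TMM, and the number of members called lower was 3 to 5 with 1 library left out and 2 with total reads or with 1 row per gene. The number of members called higher was 0 in the main edgeR fit, with TMM and the group alone. It was 0 to 1 with 1 library left out and 1 with GC content and length trends removed. With total reads, the replicate block, the series term or 1 row per gene it was 2. With the trends removed under the replicate block it was 2 as well. By the correlations of deviations, sh-luc library 1 went with sh-IUR-5 library 1 (0.536) and not with libraries 2 and 3 (-0.379 and -0.422). The replicate number did not pair libraries 2 and 3. There sh-luc library 2 had 0.221 with sh-IUR-5 library 2 and 0.489 with library 3. For sh-luc library 3 the values were 0.247 with sh-IUR-5 library 2 and 0.01 with library 3. With the block the same 4 members were lower, PSAT1 (log2 fold change 0.29) and TRIB3 (0.33) were higher and 18 member rows were lower in place of 11. Of all genes 3243 were higher and 2910 lower with the block, and of all rows 8669 were higher and 8370 lower. Member rows called higher were 0 to 3 and lower 8 to 14 with 1 library left out, with 1 higher by DESeq2, 18 lower without a minimum RPKM and 5 lower with total reads. With total reads 4650 genes were higher and 1075 lower in place of 2691 and 2373, 13634 rows higher and 3119 lower, and 68 distinct genes of the lists higher and 5 lower. With 1 library left out, 2157 to 2578 genes were higher and 1930 to 2493 lower, 5749 to 6925 rows higher and 5544 to 6788 lower, and 27 to 34 distinct list genes higher and 12 to 19 lower. At a mean RPKM of 5, 3847 rows were higher and 3517 lower, and with the trends removed under the block 28 distinct list genes were lower.

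Among the members the sign turned for CHAC1 without sh-luc library 1 (-0.051, with a range up to 0.79 over the libraries left out), for PSPH with total reads (0.029), and for DDIT4 with total reads (0.11), with 1 library left out (-0.55 to 0.17, with 0.17 without sh-luc library 1 and 0.033 and 0.031 without sh-IUR-5 library 2 and 3) and with the trends removed (0.10, and 0.073 with the block). None of the values with a turned sign passed the threshold, and the DDIT4 value of -0.55, without sh-IUR-5 library 1, did. With total reads 3 members in place of 4 had groups that did not overlap. Of other named genes, EIF2AK4 (-0.15) and HSPA5 (-0.13) turned with the trends removed, with and without the block, HSPA5 with 1 library left out (-0.038 to -0.0099), and SHMT2 with total reads (0.14). With the block and the trends removed HSPA5 had an edgeR adjusted p of 0.0316. Of 174 values of members under alternatives, 144 kept their direction and their side of the threshold, 7 were no longer past it, 15 passed it newly and 8 changed sign; for the other 52 named genes these were 892, 32, 3 and 8 of 935. The causes were not tested. Depth limits CHAC1 and ATF3, with 5 to 25 and 14 to 61 reads per library.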
